A study of Mus musculus with 6 samples.

Results

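The insulin-like growth factor (IGF) system of the embryonic mouse heart is described here across 6 hearts through 10 of its genes: the ligand genes Igf1 and Igf2, the receptor genes Igf1r and Igf2r, and the binding protein genes Igfbp2, Igfbp3, Igfbp4, Igfbp5, Igfbp6 and Igfbp7. They were taken by symbol from a table of 45706 genes, and each symbol matched 1 row. The 3 control hearts were labelled RBPMS flox/flox RBPMS2 flox/flox on strain C57BL6/J, and the 3 double knockout hearts carried the same floxed alleles together with aMyHC Cre, the recombinase driven by the promoter of alpha-myosin heavy chain, a gene of cardiomyocytes. Controls were littermates at an embryonic stage whose day the labels do not give, and their genotype lists no Cre, so effects of Cre itself and of the deletion cannot be told apart. Whole hearts were profiled, so RNA of cells without Cre is included, and a smaller number of cells of a type cannot be told apart from less RNA per cell. RBPMS and RBPMS2 are RNA-binding proteins of the heart, and the comparison asked what their loss from cardiomyocytes did to the heart's transcripts.

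IGF1 and IGF2 are secreted growth factors that act through the IGF1 receptor, a tyrosine kinase that signals to the PI3K and AKT kinases and to growth. The product of Igf2r, the mannose 6-phosphate receptor, carries IGF2 to the lysosome for breakdown and does not signal in this way. The binding proteins hold IGFs outside the cell, can block or prolong their action, and release them when cut by proteases. In the embryonic heart IGF2 from the epicardium and endocardium is known to drive the division of cardiomyocytes. Igf2 is expressed from the paternal and Igf2r from the maternal allele in the mouse.

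Values below are normalised read numbers, that is, read numbers per gene after the authors' scaling of each heart and rounding. Totals lay between 17861435 and 18439201 per heart, and the spacing of low values gave estimated depths of 12957977 to 25837261 reads. Rbpms stood between 3868 and 7656 in the controls and between 852 and 1134 in the knockouts, and Rbpms2 between 1362 and 1998 against 879 to 1003, so neither targeted gene overlapped between the groups (log2 fold changes of -2.53, SE 0.22, and -0.84, SE 0.12). All 10 cardiomyocyte markers were present in every heart. The labels do not say which hearts came from which litter. The p-values set each group difference against the spread between these hearts, adjusted with a trend over all genes tested, and take the hearts as independent.

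Of the 10 IGF genes, all with a mean value above the filter of 10, 4 were higher and 1 was lower in the double knockout hearts at an adjusted p under 0.05 (limma on log2(value + 1), Benjamini-Hochberg over 15556 genes). Over all genes tested 17.2% passed, 8.61% higher and 8.56% lower. The genes that rose were Igfbp3, Igf1, Igfbp4 and Igfbp5, and the gene that fell was Igfbp2. Igf2, Igf1r, Igf2r, Igfbp6 and Igfbp7 did not pass. The groups did not overlap for 6 of the 10 genes, the 5 that passed and Igf1r, beside 35.4% of all genes tested. The median log2 fold change of the 10 genes was 0.079, and that of all genes tested 0.0018.

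**Figure D1:**
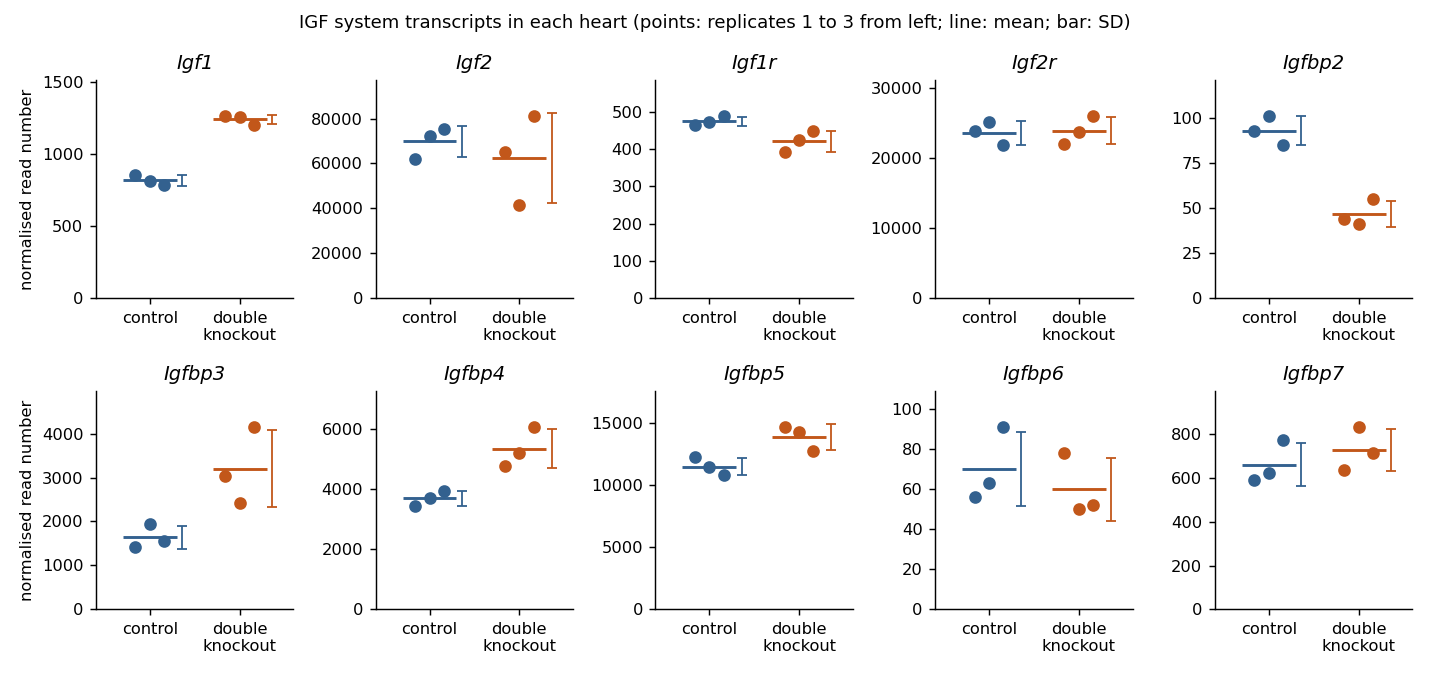
Normalised read number (y axis, from 0, a scale per gene) of the 10 IGF genes in 3 control hearts (blue) and 3 double knockout hearts (orange). Points are hearts, lines are means and bars are SDs. For Igf1 the controls lie between 781 and 856 and the knockouts between 1198 and 1261, whereas for Igf2 the knockouts spread from 41362 to 81074 around the controls.

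Igf1 (ENSMUSG00000020053; mm10 chromosome 10, 87858265 to 87937042, plus strand) had values of 856, 810 and 781 in the control hearts, given throughout in the order of their replicate numbers, against 1261, 1254 and 1198 in the knockout hearts. Every knockout lay well above every control, and the hearts of each group lay close together. The mean went from 816 ± 37.8 to 1238 ± 34.5 (SD, n = 3 each), which is 0.60 in log2 terms with an SE of 0.07 (limma, adjusted p = 0.000776). This is a fold of 1.52, with a 95% limma interval of 1.36 to 1.69. By its p-value Igf1 stood at place 109 of the 15556 genes tested.

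Igf2 (ENSMUSG00000048583; chromosome 7, 142650766 to 142666816, minus strand) had values of 61920, 72153 and 75388 in control hearts against 65094, 41362 and 81074 in knockout hearts. The groups overlapped: knockout replicate 2 held the lowest and knockout replicate 3 the highest value of the 6 hearts. The means were 69820 ± 7031 and 62510 ± 19982 (SD, n = 3 each), with a log2 fold change of -0.21 (95% limma interval -0.66 to 0.24, limma adjusted p = 0.524). The interval spans folds from 0.634 to 1.18, so changes within it were not excluded. Without knockout replicate 2 the log2 fold change was 0.062, and without knockout replicate 3 it was -0.42. Igf2 was the gene at place 11 by mean value among the genes tested and made up 0.344% to 0.409% of a control heart's summed values and 0.232% to 0.453% of a knockout's.

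The imprinted neighbour of Igf2, the long noncoding RNA gene H19, which is expressed from the maternal allele, lies 72.6 kb away on the same chromosome. It was at 95196, 96266 and 105706 in control hearts against 103156, 138227 and 111521 in knockout hearts, with a log2 fold change of 0.24 (SE 0.12, with adjusted p = 0.192 in limma). Without knockout replicate 2 the value of H19 was 0.12. Knockout replicate 2, the heart with the lowest Igf2, held the highest H19. The antisense transcript Igf2os, which overlaps Igf2 on the opposite strand and was picked out after its values were seen, was at 579, 598 and 626 in control hearts against 568, 353 and 583 in knockout hearts. It too was lowest in knockout replicate 2. The sources used here do not say whether counting used strand, so reads of Igf2 and Igf2os may be mixed.

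Both receptor genes missed the threshold. Igf1r (ENSMUSG00000005533; chromosome 7, 67952827 to 68233668, plus strand) had values of 465, 472 and 489 in control hearts against 392, 426 and 448 in knockout hearts. The groups did not overlap, with every knockout below every control, but the gap was small. The means were 475 ± 12.3 and 422.0 ± 28.2 (SD, n = 3 each), with a log2 fold change of -0.17 (95% limma interval -0.36 to 0.02, limma adjusted p = 0.197). Igf2r (ENSMUSG00000023830; chromosome 17, 12682406 to 12769664, minus strand) had values of 23924, 25224 and 21832 in control hearts against 22102, 23723 and 26036 in knockout hearts. These ranges overlapped almost entirely, and reads of Igf2r may be mixed with those of Airn, which lies antisense to it. The log2 fold change was 0.017, and its 95% limma interval of -0.17 to 0.21 leaves out a fold above 1.15 or below 0.888 (limma adjusted p = 0.917).

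**Figure D2:**
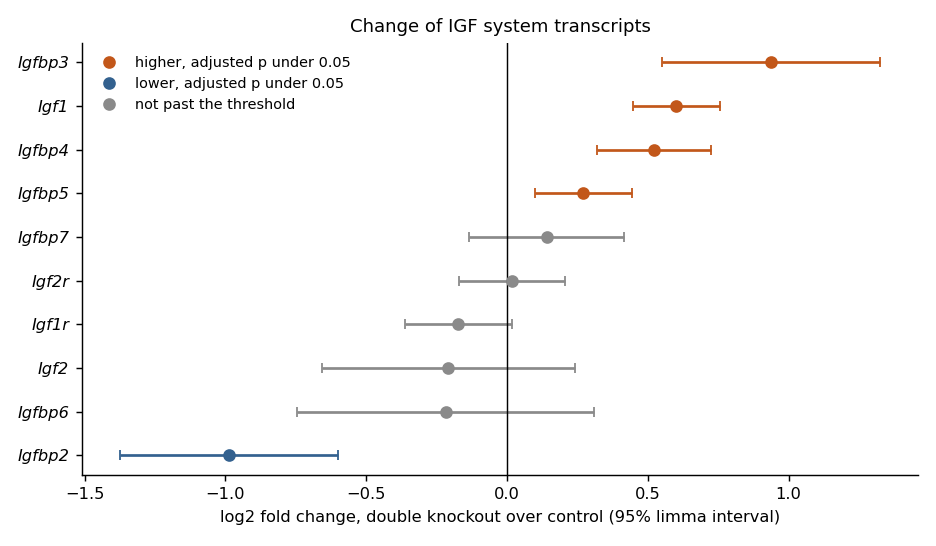
Log2 fold change, double knockout over control (x axis), of each IGF gene with its 95% limma interval. Orange marks genes higher and blue the gene lower at an adjusted p under 0.05, and grey those that did not pass. Igfbp3 at 0.94 and Igfbp2 at -0.99 lie at opposite ends.

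The binding protein genes gave both the largest rise and the only fall that passed the threshold among the 10. Of the 6 measured here, 3 rose and 1 fell, beside 8.61% higher and 8.56% lower over all genes tested. Igfbp2 and Igfbp5 are neighbours on chromosome 1, on opposite strands with their 3′ ends facing each other and 5.46 kb between them, with no protein-coding gene in the gap, and they changed in opposite directions. To let the promoters of the binding protein genes that changed be compared, their windows of 250 bases before to 50 after the RefSeq start are shown 5′ to 3′ on the strand of each gene (RefSeq, GRCm38.p6, the same assembly as mm10). The windows are chr1:72824230-72824529 on the plus strand, chr1:72874816-72875115 on the minus strand, chr11:7213874-7214173 on the minus strand and chr11:99040994-99041293 on the plus strand. All 10 IGF genes were found in the promoter table. Where a gene had several windows, 2 for Igfbp2 and 4 for Igf2, the one nearest to the annotated start of the gene was used. Capitals mark every match, on either strand, to the TATA box letters TATAAA, the CCAAT box, the GC box letters GGGCGG or the CArG box that serum response factor binds.
Igfbp2: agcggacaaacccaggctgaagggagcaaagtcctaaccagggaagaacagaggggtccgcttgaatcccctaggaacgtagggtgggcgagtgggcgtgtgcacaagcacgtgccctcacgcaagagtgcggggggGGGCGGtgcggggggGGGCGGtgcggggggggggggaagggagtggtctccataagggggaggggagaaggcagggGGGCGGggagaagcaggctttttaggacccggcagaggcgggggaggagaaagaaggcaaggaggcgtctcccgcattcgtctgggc
Igfbp5: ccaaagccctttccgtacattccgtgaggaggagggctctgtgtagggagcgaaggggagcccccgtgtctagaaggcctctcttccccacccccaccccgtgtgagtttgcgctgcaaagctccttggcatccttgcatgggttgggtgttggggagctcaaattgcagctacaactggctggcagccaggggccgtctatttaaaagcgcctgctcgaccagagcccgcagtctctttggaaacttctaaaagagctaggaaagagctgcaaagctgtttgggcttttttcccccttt
Igfbp3: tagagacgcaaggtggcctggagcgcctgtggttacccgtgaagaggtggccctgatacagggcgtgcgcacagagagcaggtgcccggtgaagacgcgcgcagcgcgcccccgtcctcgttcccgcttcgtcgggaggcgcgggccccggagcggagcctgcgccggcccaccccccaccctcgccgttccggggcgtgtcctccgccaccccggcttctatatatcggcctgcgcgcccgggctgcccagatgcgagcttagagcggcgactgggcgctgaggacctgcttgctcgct
Igfbp4: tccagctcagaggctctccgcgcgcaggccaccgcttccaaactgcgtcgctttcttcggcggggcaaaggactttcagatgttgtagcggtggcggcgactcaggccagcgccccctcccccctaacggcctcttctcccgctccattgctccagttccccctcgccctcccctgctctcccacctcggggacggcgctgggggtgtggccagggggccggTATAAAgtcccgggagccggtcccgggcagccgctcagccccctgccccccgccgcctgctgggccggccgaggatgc
The window of Igfbp2, the gene that fell, held 3 copies of GGGCGG, and none of the windows of the 3 binding protein genes that rose held one. GGGCGG also stood in the windows of Igf1r, Igf2r and Igfbp7, whose values did not pass the test. The window of Igfbp4 held a TATAAA, from base -27 to -22 before the start. Those of Igfbp3 and Igfbp5 held none of the 4 motifs, and no matches overlapped in the windows shown. Of all 32851 promoter windows in the table, 35.7% held GGGCGG, while 13.6% held TATAAA, 37.4% held CCAAT and 1.63% a CArG box. The GC content was 67.0% for Igfbp2, 56.3% for Igfbp5, 71.7% for Igfbp3 and 71.3% for Igfbp4, with a median of 52.7% over all windows. A match describes letters only and does not show that a factor binds there.

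Igfbp3 encodes the main carrier of IGFs in adult blood. The gene (ENSMUSG00000020427; chromosome 11, 7206086 to 7213923, minus strand) had values of 1419, 1936 and 1567 in control hearts against 3036, 2412 and 4138 in knockout hearts. All knockouts lay above all controls, and the knockouts were the more spread group. The mean went from 1641 ± 266 to 3195 ± 874 (SD, n = 3 each), which is 0.94 in log2 terms with an SE of 0.17 (limma, adjusted p = 0.00606). Without knockout replicate 3, the highest heart, it was 0.73. Its neighbour Igfbp1, which encodes a binding protein made mainly by the liver, lies 3.54 kb away and was at 0 to 5 in every heart, too low to test.

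Igfbp2 encodes a binding protein that is abundant in the fetus. The gene (ENSMUSG00000039323; chromosome 1, 72824503 to 72852474, plus strand) was low, at 93, 101 and 85 in control hearts against 44, 41 and 55 in knockout hearts. Every knockout lay below every control. The mean went from 93.0 ± 8.0 to 46.7 ± 7.37 (SD, n = 3 each), which is -0.99 in log2 terms with an SE of 0.17 (limma, adjusted p = 0.00477). These values stand for an estimated 60 to 118 reads in the controls and 34 to 64 in the knockouts, so counting error is a larger part of them than for the other changed genes.

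Igfbp4 encodes a binding protein that the protease pappalysin cuts. The gene (ENSMUSG00000017493; chromosome 11, 99041244 to 99054392, plus strand) had values of 3450, 3724 and 3950 in control hearts against 4783, 5194 and 6060 in knockout hearts. Here too the groups did not overlap. The mean went from 3708 ± 250.4 to 5346 ± 652 (SD, n = 3 each), which is 0.52 in log2 terms with an SE of 0.09 (limma, adjusted p = 0.00447).

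Igfbp5 encodes a binding protein that also attaches to extracellular matrix. The gene (ENSMUSG00000026185; chromosome 1, 72857932 to 72874884, minus strand) had values of 12205, 11416 and 10813 in control hearts against 14615, 14289 and 12687 in knockout hearts. The groups did not overlap, although knockout replicate 3 stood close to control replicate 1. The mean went from 11478 ± 698 to 13864 ± 1032 (SD, n = 3 each), which is 0.27 in log2 terms with an SE of 0.08 (limma, adjusted p = 0.0375). This call was the least firm of the 5. It was lost without control replicate 2 (adjusted p = 0.101), control replicate 3 (adjusted p = 0.12), knockout replicate 1 (adjusted p = 0.0978) or knockout replicate 2 (adjusted p = 0.148) in limma, and its direction stayed the same in each.

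The other 2 binding protein genes did not pass, and their groups overlapped. Igfbp6 (ENSMUSG00000023046; chromosome 15, 102144362 to 102149511, plus strand), whose product prefers IGF2, was at 56, 63 and 91 in control hearts against 78, 50 and 52 in knockout hearts, with a log2 fold change of -0.22 (95% limma interval -0.74 to 0.31, limma adjusted p = 0.575). Control replicate 3 and knockout replicate 1 were the high hearts. Igfbp7 (ENSMUSG00000036256; chromosome 5, 77349240 to 77408041, minus strand), whose product binds IGFs only weakly, was at 589, 621 and 773 in control hearts against 639, 831 and 714 in knockout hearts. Its log2 fold change was 0.14 (95% limma interval -0.13 to 0.42, limma adjusted p = 0.476). Igfbp7 overlaps Polr2b on the opposite strand, so its reads may be mixed with those of that gene.

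Levels of different genes were compared per kilobase of merged exons of all annotated transcripts, which understates genes with long exons that few transcripts use, such as Igf1r with 16.8 kb. On this scale Igf2 stood far above the rest in every heart, with a mean level of 12200 ± 1228 per kb in the controls and 10923 ± 3491 in the knockouts (SD, n = 3 each). Igf2r followed at 2542 ± 184 in the controls and 2573 ± 212 in the knockouts. Igfbp5 stood at 1911 ± 116 in the controls, below Igf2r, and at 2308 ± 172 in the knockouts, where it lay above Igf2r in replicate 1. Igfbp4 came next in every heart, at 839.7 ± 56.7 in the controls and 1211 ± 148 in the knockouts.

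Further down, Igfbp7 at 547 ± 81.3 and Igfbp3 at 524 ± 85.1 per kb could not be ordered in the controls, where control replicate 2 reversed them. In all 3 knockouts Igfbp3, at 1021 ± 279, lay above Igfbp7, at 602 ± 80.0. Igf1 was at 82.4 ± 3.82 in the controls and 125 ± 3.49 in the knockouts, so that its level stayed far below that of Igf2. In the controls Igfbp6, at 62.9 ± 16.7, overlapped both with Igf1 above it and with Igfbp2, at 50.4 ± 4.33, below it. Igf1r had the lowest control level at 28.3 ± 0.735, and in the knockouts its 25.1 ± 1.68 overlapped with the 25.3 ± 3.99 of Igfbp2.

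**Figure D3:**
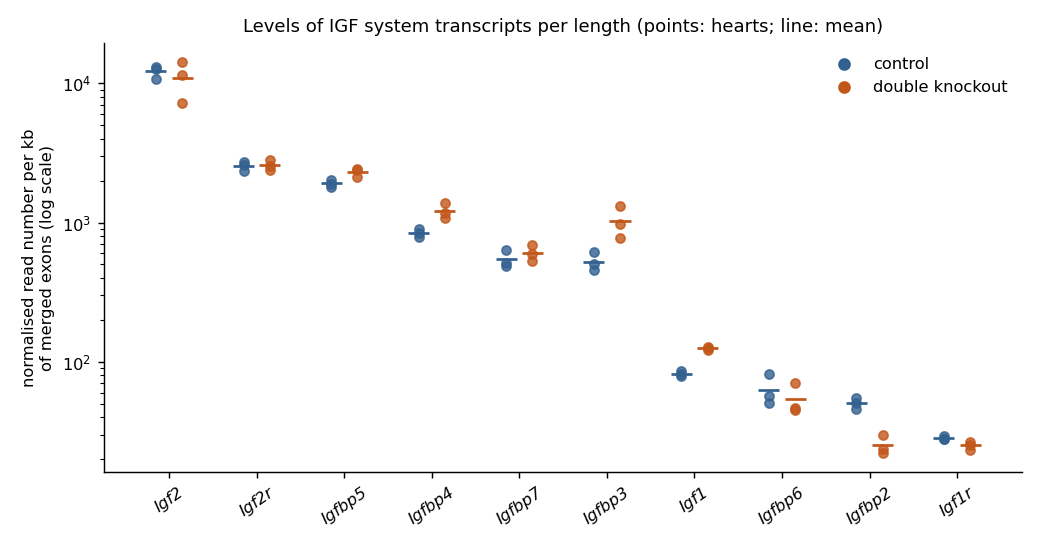
Normalised read number per kilobase of merged exons (y axis, log scale) of the IGF genes, ordered by their control mean. Points are hearts and lines are means, with controls in blue and double knockouts in orange. Igf2 lies highest in every heart, and Igfbp2 drops to the level of Igf1r in the knockouts.

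Within a heart, the ratio of Igf2 to Igf1 per kb was 125, 154 and 167 in control hearts against 89.3, 57.1 and 117 in knockout hearts, so the groups did not overlap and the lowest ratio was that of knockout replicate 2. That of Igf2r to Igf1r was 92.8, 96.4 and 80.5 in control hearts against 102, 100.5 and 105 in knockout hearts, again without overlap. The ratio of Igfbp3 to Igfbp2 was 9.0, 11.3 and 10.9 in control hearts against 40.7, 34.7 and 44.4 in knockout hearts. These genes had the largest rise and the largest fall of the IGF genes, so a gap follows from picking them. Summed over the 6 binding protein genes, the level was 3855, 3988 and 3963 per kb in control hearts against 5109, 5080 and 5474 in knockout hearts. Igfbp5 held the largest share of that sum in every heart, from 45.4% to 52.7% in the controls and from 38.6% to 47.6% in the knockouts. Igfbp3 held 11.8% to 15.5% in the controls and 15.2% to 24.2% in the knockouts. These ratios and shares are descriptions of the values above and were not tested.

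Other genes of the pathway were taken from 4 lists with 78 symbols, of which 71 were tested. In all, 11 were higher and 6 lower in the knockouts at an adjusted p under 0.05, which is 23.9% beside the 17.2% of all genes tested. The count of higher genes fell when single hearts were left out. It was 4 without control replicate 2, 3 without control replicate 3, 3 without knockout replicate 2 and 4 without knockout replicate 3. The count of lower genes was 3 without knockout replicate 2. The share of all genes tested that passed in either direction fell as well. In these 4 fits it was 12.1%, 10.7%, 8.50% and 11.8%, in the same order. The median log2 fold change of the 71 genes was 0.027. Of the called pathway genes named below, Ctsd, Igf2bp1, Ghr, Grb14 and Mtor passed without each heart in turn.

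Among 17 tested genes of IGF processing and bioavailability, 7 rose and 1 fell, which is 47.1% beside 17.2% of all genes tested, with a median log2 fold change of 0.41. Nov, a matricellular protein of the CCN family, was at 442, 182 and 242 in control hearts against 609, 553 and 446 in knockout hearts (log2 fold change 0.98, SE 0.26, adjusted p = 0.0307 in limma). Its highest control and lowest knockout were nearly equal. Kazald1, an IGF-binding-protein-related secreted protein, rose by 0.81 on the log2 scale (SE 0.22, with adjusted p = 0.0293 in limma). Ctsd, the lysosomal protease cathepsin D, rose by 0.41 (SE 0.08), from 6742, 7939 and 7860 to 9213, 10247 and 10412. Stc1, a stanniocalcin that inhibits pappalysin, was at 273 to 285 in the controls and 351 to 459 in the knockouts and rose by 0.47 (SE 0.12). The matrix protease gene Adamts1 rose by 0.34 (SE 0.08), and Igfbpl1, an IGF-binding-protein-like gene, fell by 0.40 (SE 0.10). The remaining 2 that rose, named after their values were seen, were the convertase gene Pcsk6 (0.53, SE 0.15) and Crim1 (0.30, SE 0.08). Single hearts ended several of these calls in limma: Nov without control replicate 2 or 3 or knockout replicate 1 or 2 (adjusted p = 0.076 to 0.104), and Kazald1 without control replicate 1 or 2 or knockout replicate 2 or 3 (0.059 to 0.114). Stc1 lost its call without any control or without knockout replicate 3 (0.053 to 0.069), Adamts1 without control replicate 3 or knockout replicate 2 or 3 (0.054 to 0.058), and Igfbpl1 without control replicate 2 or 3 or knockout replicate 2 (0.068 to 0.106). Pcsk6 lost it without any heart except knockout replicate 1 (0.061 to 0.152), and Crim1 without any heart except control replicate 1 (0.067 to 0.121).

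The pappalysin genes, whose proteases release IGF from its binding proteins, were low and did not pass with all 6 hearts. Pappa was at 44, 24 and 31 in control hearts against 61, 80 and 38 in knockout hearts (log2 fold change 0.81, SE 0.30, adjusted p = 0.0947 in limma), and it passed without knockout replicate 3 (adjusted p = 0.0365). Pappa2 was at 22 to 30 in control hearts against 30, 87 and 31 in knockout hearts, where replicate 2 alone stood apart (log2 fold change 0.78, SE 0.38, adjusted p = 0.184 in limma). Without that heart the value of Pappa2 was 0.29. Stc2, the other stanniocalcin, was at 312 to 347 in the controls and 238 to 351 in the knockouts. Furin, the convertase that cuts the IGF1 receptor precursor, had a log2 fold change of 0.11 (SE 0.13), and Ctgf, another gene of the CCN family, one of 0.24 (SE 0.12), and neither passed. Without control replicate 1 these values were 0.0026 for Furin and 0.087 for Ctgf.

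The 3 genes of IGF2 mRNA-binding proteins, which bind the Igf2 message and others, changed in different directions. Igf2bp1 was at 957, 970 and 1005 in control hearts against 682, 756 and 807 in knockout hearts, and fell by 0.39 (SE 0.08, adjusted p = 0.00972, limma). Igf2bp3 was at 646, 527 and 552 against 478, 425 and 444, and fell by 0.35 (SE 0.10, with adjusted p = 0.0344 in limma). Igf2bp2 was at 1805, 1609 and 1719 against 1932, 2258 and 2313, and rose by 0.34 (SE 0.08, adjusted p = 0.0208, limma). None of the 3 overlapped between the groups, beside 35.4% of all genes tested without overlap. Hmga2, a chromatin protein gene of fetal tissue, rose by 0.41 (SE 0.12). In limma the call of Igf2bp2 was lost without control replicate 2 or 3 or knockout replicate 2 or 3 (adjusted p = 0.059 to 0.095), and that of Igf2bp3 without control replicate 1 or 3 or knockout replicate 2 or 3 (0.069 to 0.132), and also with equal totals (0.0546), in limma-voom (0.0644) and with no filter on low values (0.0673). The call of Hmga2 was lost without any heart except control replicate 1 (0.059 to 0.125). In this list of 10 tested genes, 2 rose and 2 fell in all, beside 17.2% of all genes tested, with H19 and Grb10, an imprinted adaptor that restrains the IGF1 and insulin receptors, not passing. Grb10 was at 34944 to 38353 in the controls and 30951 to 33594 in the knockouts (log2 fold change -0.20, SE 0.07, adjusted p = 0.0964 in limma).

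Among 14 tested genes of the receptor family and its docking proteins, 2 rose and 1 fell, which is 21.4%, near the 17.2% of all genes tested. Ghr, the growth hormone receptor, was at 1847, 1813 and 1555 in control hearts against 2425, 2325 and 2408 in knockout hearts, and rose by 0.46 (SE 0.08, adjusted p = 0.00368, limma). The adaptor gene Grb2 rose by 0.23 (SE 0.06, with adjusted p = 0.0292 in limma). This call of Grb2 was lost without any 1 heart (adjusted p = 0.057 to 0.101). Grb14, an adaptor that inhibits the insulin receptor, was at 1894, 1887 and 2187 against 1467, 1174 and 1379, and fell by 0.57 (SE 0.10, with adjusted p = 0.00364 in limma). Insr, the insulin receptor, had a log2 fold change of 0.20 (SE 0.08, adjusted p = 0.106, limma) with groups that did not overlap, and it passed without control replicate 1 (0.26, adjusted p = 0.0377). The insulin receptor substrates Irs1 and Irs2 had log2 fold changes of 0.032 (SE 0.22) and -0.018 (SE 0.15), and Gab1 and Ptpn11 ones of -0.12 (SE 0.06) and -0.071 (SE 0.07), and none of these 4 passed.

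Of 30 genes of PI3K, AKT, FOXO and mTOR signalling, 0 rose and 2 fell, which is 6.67% beside 17.2% of all genes tested. Mtor, the kinase of the growth-controlling mTOR complexes, was at 1476, 1473 and 1370 in control hearts against 1055, 1065 and 1122 in knockout hearts, and fell by 0.41 (SE 0.07, with adjusted p = 0.00325 in limma). Tsc1, a subunit of the complex that restrains mTOR, was at 1037, 912 and 892 against 773, 784 and 707, and fell by 0.33 (SE 0.08, adjusted p = 0.0251, limma). The call of Tsc1 was lost without control replicate 1 or 2 or knockout replicate 2 or 3 (limma adjusted p = 0.053 to 0.081). Akt1 was at 7586, 8210 and 8940 against 6855, 6918 and 7591 and missed the threshold (log2 fold change -0.21, SE 0.08, adjusted p = 0.0889 in limma). Inppl1, a phosphatase acting on PI3K products, had a log2 fold change of -0.22 (SE 0.08, adjusted p = 0.0792, limma). Without control replicate 1 both passed in limma, Akt1 at -0.27 (adjusted p = 0.0416) and Inppl1 at -0.27 (adjusted p = 0.0496).

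**Figure D4:**
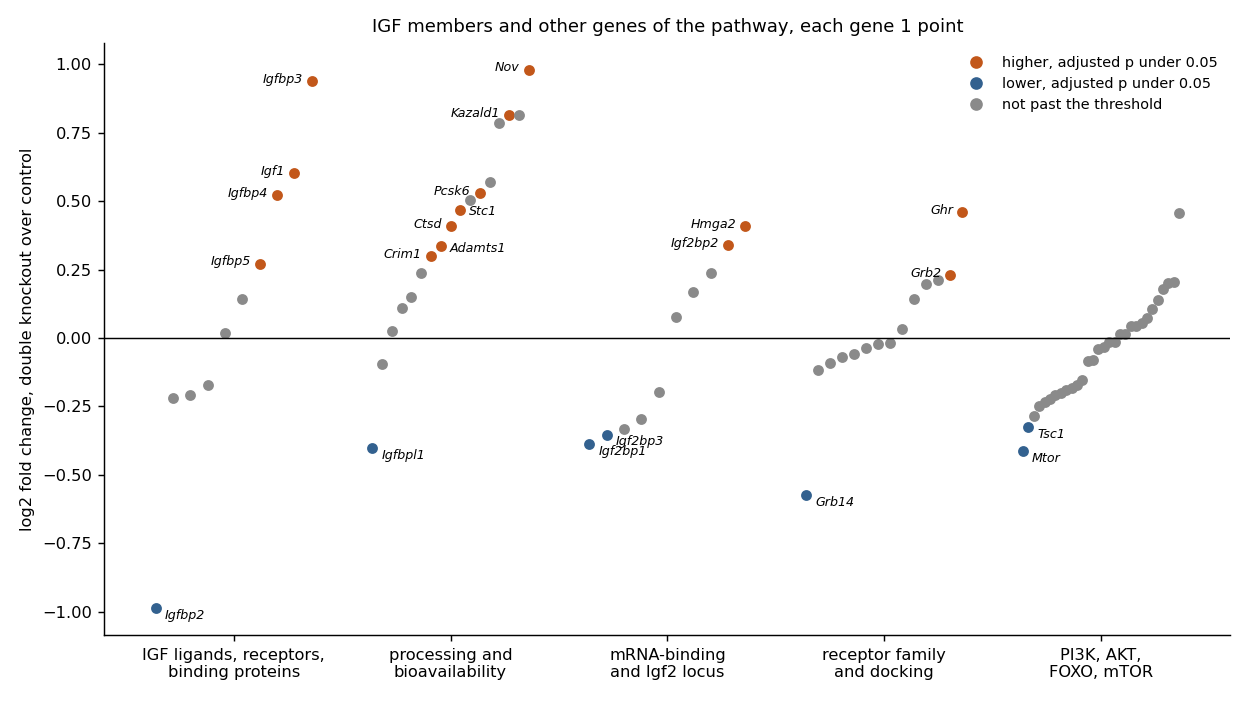
Log2 fold change, double knockout over control (y axis), of the 10 IGF genes and of the tested genes of 4 pathway lists, each gene 1 point, sorted within its list. Orange and blue mark genes higher and lower at an adjusted p under 0.05, with their names. The processing list holds 7 orange points and 1 blue, and the list of PI3K, AKT, FOXO and mTOR genes 2 blue and 0 orange.

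Some markers of other cell types of the heart were also higher in the knockouts, beside the rises of Igf1, Igfbp3, Igfbp4 and Igfbp5. Over all genes tested, 8.61% were higher and 8.56% lower, and the counts of each list below stand beside these shares. Of 10 fibroblast and mesenchyme markers 5 rose, among them the collagen genes Col3a1 (0.55, SE 0.10) and Col1a2 (0.57, SE 0.13) on the log2 scale, and their summed value was 92897 to 108217 in the controls and 121523 to 151220 in the knockouts. For 10 endothelial and endocardial markers 5 rose (summed value of the list, as in the ranges below, 21379 to 21789 against 24708 to 27320). The endothelial markers with the highest means, Cdh5, Pecam1 and Kdr, did not pass. For 10 macrophage markers 7 rose (1858 to 2061 against 2643 to 3649). Of 10 epicardial markers 2 rose (4107 to 4409 against 4686 to 5226), and of 9 mural cell markers 0 rose and 1 fell (12852 to 14044 against 14697 to 16338). Of 10 cardiomyocyte markers 1 fell (1053072 to 1100174 against 894866 to 1005844). The mural marker that fell was the smooth muscle myosin gene Myh11, by 1.49 on the log2 scale (SE 0.31), and the cardiomyocyte marker was the cardiac actin gene Actc1, by 0.38 (SE 0.11). No marker of these 6 lists was at 0 in all hearts. None of 9 erythroid genes passed (38040 to 66307 against 30761 to 37941). Of 9 liver markers, 4 had a mean below 10 and 1, Ahsg, rose (summed value of the list 97 to 195 against 179 to 426). Of 7 lung and gut markers, 2 could be tested and rose, the keratin genes Krt8 and Krt18. The summed value of this list was 191 to 312 against 467 to 577. The others of that list, Cdh1, Epcam, Sftpb and Sftpc, had means below 10, and the lung transcription factor gene Nkx2-1 was at 0. Myh11 was named after its values were seen. The part of these cell types in the IGF results was not tested.

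By likeness of pattern, measured as Pearson's r of log2(value + 1) over the 6 hearts among 7563 genes with at least the median mean value of those tested, Igfbp2 was most like Ppp1r1a (r = 0.992), Mtor (r = 0.988) and Kif2c (r = 0.986). Igfbp3 was most like Rabgef1 (r = 0.993), Adpgk (r = 0.986) and Mpzl1 (r = 0.986), compared with 7562 genes. High values of r were common over 6 hearts: 468 genes had an r above 0.9 with Igfbp2 and 229 with Igfbp3. All these points share the same 6 libraries and the same split into groups. Rabgef1, Adpgk and Mpzl1 did not pass the threshold themselves, whereas Ppp1r1a fell by 0.79 and Kif2c by 0.54 on the log2 scale.

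Leaving out each heart in turn moved the log2 fold change of Igf1 between 0.57 and 0.64, that of Igfbp2 between -1.11 and -0.90, that of Igfbp3 between 0.73 and 1.12 and that of Igfbp4 between 0.43 and 0.60. These 4 genes passed in limma in each of those fits. Igf1r stayed below 0, between -0.22 and -0.12, and did not pass in any of them. Igfbp6 lay between -0.42 (without knockout replicate 1) and -0.015 (without control replicate 3), also without a call. Igfbp7 lay between 0.041 (without knockout replicate 2) and 0.26 (without control replicate 3) and was not called either.

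**Figure D5:**
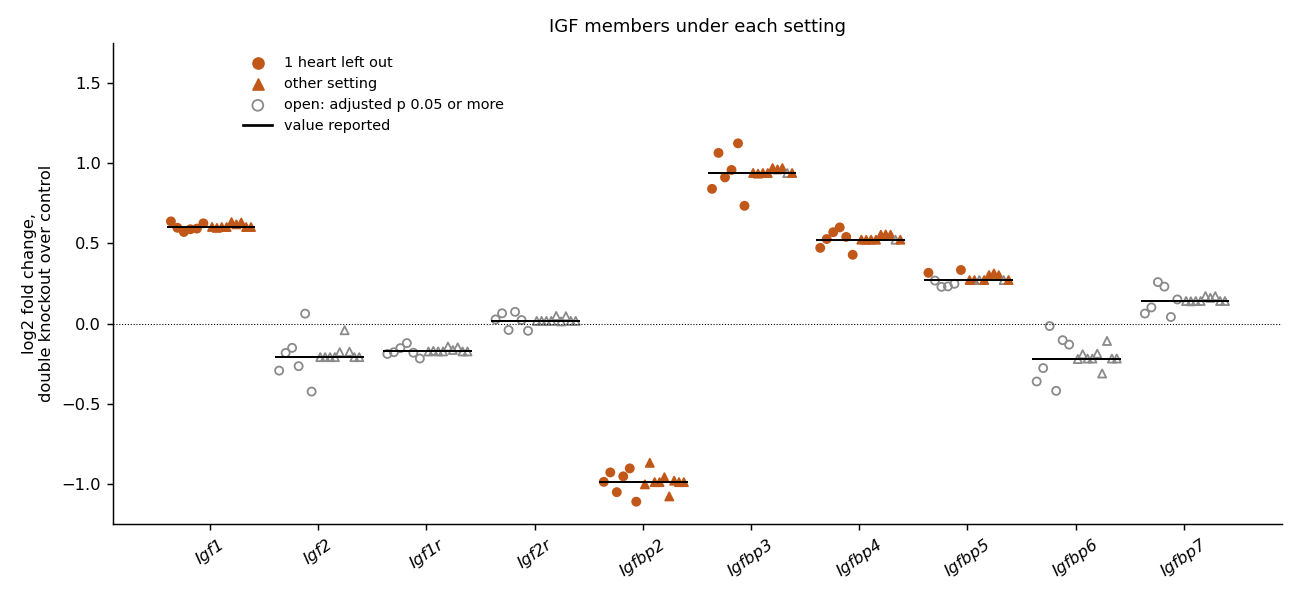
Log2 fold change (y axis) of each IGF gene when 1 heart is left out (circles) or another setting is used (triangles), with the value reported as a line. Filled orange symbols have an adjusted p under 0.05 and open grey ones do not. Igf1 and Igfbp2 are filled in all 15 settings, and Igfbp5 is open in several.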

How the data were processed

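Poly(A) RNA of 6 embryonic mouse hearts was sequenced as paired-end stranded libraries, per the labels' protocols. Trimmomatic, STAR 2.4.2a, featureCounts 1.5.0, DESeq and DESeq2 and the build mm10 are named in the submitters' processing notes, without the role of each, the annotation or the strand setting. The deposited values are described as a score: whole numbers that the authors had scaled per heart and rounded, read from the values, since the file headers state no unit. What 1 read is worth was estimated from the spacing of values up to 150, and depth from it, which limits low genes most in control replicate 3. Exact reads cannot be recovered. Limma 3.58.1 (R 4.3.3) with a variance trend was fitted on log2(value + 1) to 15556 genes with a mean of at least 10, by group only, with Benjamini-Hochberg adjustment and a threshold of 0.05. A fold change on this scale understates low genes. The fit was tested on simulated data. Coordinates and exon lengths came from GENCODE M21, in which 45143 of 45706 identifiers were found. The IGF genes, lists and tests were chosen with earlier results of these data known. The rule named all 10 IGF genes, Rbpms and Rbpms2, up to 6 called and 2 uncalled genes per list, a set of fixed pathway genes, and the 3 genes most like the largest rise and fall. Replicates of a group differed by more than sampling noise. Python 3.11.15 with pandas 2.3.3 and numpy 2.4.6 made the tables, and matplotlib 3.10.9 drew the plots. Alternatives were other pseudocounts, filters and scalings, limma-voom on estimated reads, a test against a fold change of 1.2, the replicate number as a block, and leaving out each heart.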

Additional observations from a re-analysis of the deposited data

How the results depend on the processing

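Igf1 and Igfbp2, with Rbpms and Rbpms2, kept their direction and passed under all 15 alternatives. Against a fold change of 1.2, 1 IGF gene was higher (Igf1) and 1 lower (Igfbp2), and the values of Igfbp3 (0.94, adjusted p = 0.0541), Igfbp4 (0.52, adjusted p = 0.153) and Igfbp5 (0.27) did not pass in limma, where each value itself is unchanged because only the null differs. With no filter on low values, and so more genes tested, Igfbp5 at 0.27 had an adjusted p of 0.083, and the calls of Crim1, Grb2, Hmga2, Igf2bp2, Igf2bp3, Kazald1, Nov, Pcsk6, Stc1 and Tsc1 were lost too (adjusted p = 0.051 to 0.091 in limma). Limma-voom on estimated reads also lost Pcsk6 (adjusted p = 0.0586). Quantile normalization gave -0.041 for Igf2. Without each heart in turn, Igfbp5 ranged from 0.23 to 0.33, Igf2 from -0.42 to 0.062 (the latter without knockout replicate 2) and Igf2r from -0.045 to 0.073, with Igf2r at -0.040 without control replicate 3 and at -0.045 without knockout replicate 3. Across the fits without 1 heart, the number of IGF genes higher was 3 to 4, and that of other pathway genes 3 to 9 higher and 3 to 7 lower. The pathway genes numbered 3 higher with no filter, 0 higher and 0 lower against a fold of 1.2, and 12 lower with the replicate block. Over all genes, 2670 passed, against 1755 with no filter, 418 against a fold of 1.2, and 1319 to 2371 without each heart. Without each heart Furin ranged from -0.0068 to 0.23, Irs1 from -0.27 to 0.22, Irs2 from -0.15 to 0.12 and Stc2 from -0.19 to 0.089, none called. Directions turned for Furin (-0.0068 without knockout replicate 3), Irs1 (-0.27 without control replicate 3, -0.061 without knockout replicate 1), Irs2 (0.012 with equal totals, 0.052 without control replicate 2, 0.12 without knockout replicate 1) and Stc2 (0.089 without knockout replicate 1). Where single hearts or settings change a value, the cause was not tested. The deviations of hearts with the same replicate number from their group means correlated at -0.041, -0.37 and 0.049 over the genes tested. With 3 hearts per group and no litters named, this cannot settle whether the numbers pair the hearts. The replicate block gave 3530 genes in all, against 2670 without it, and changed no call of the 10 IGF genes. Akt1 (adjusted p = 0.0235) and Inppl1 (adjusted p = 0.0171) passed with it in limma.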
